A study of Hordeum vulgare with 10 samples.

Results

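The heat response of barley shoots was followed across the whole transcriptome, as heated shoots (1 h at 35.5 °C) against control shoots (22 °C). The plants were 2 weeks old and of cultivar Rolap, a spring barley, and no transgene or mutation is named in the labels. All were grown in 1 type of growth chamber under long days, and the soil was kept moist so that heat was not combined with drought. The shoot comparison holds 6 of the 10 samples of the series, 3 libraries from heated and 3 from control plants. The other 4 are 2 libraries from heated and 2 from control roots. Every gene of the deposited shoot table was taken, 24312 in all, of which 24211 carry an MLOC identifier and 101 an EPlHVUG identifier. No gene was chosen by its values.

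In plants, heat is sensed within minutes, and heat shock transcription factors then switch on genes of molecular chaperones such as Hsp90, Hsp70 and the small heat shock proteins, which keep other proteins folded. Green shoots carry much of their messenger RNA in few genes, mainly those for photosynthesis, such as the small subunit of Rubisco and the chlorophyll a/b binding proteins. A change in these few genes therefore moves a large part of all reads. The deposited tables give no names for the identifiers, and 0 of them matched the reference table of barley genes, so that genes are described here by level, rank and response. Only Hsp90.1 and the phosphate (Pi) genes of the study have a name.

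For each gene the deposited value is the mean normalized count of a condition, in which the reads of each library are divided by its size factor. The reads of the single libraries were recovered from the 15 digits of these means for 24286 of the 24312 genes. The 26 genes that could not be split are all among the 100 most abundant and hold 29.5% of the gene reads in heat and 27.5% in control. They enter every description by group means, but no test. No replicate letter could be given to the recovered libraries, which are numbered by falling size factor, 0.975, 0.927 and 0.871 in heat and 1.18, 1.10 and 1.02 in control. Without the 26 genes they held 10812274 to 11201915 reads in heat and 11025840 to 11800081 in control. Between libraries of the same condition, squared differences were 2.31 to 4.28 times those that sampling of reads alone gives. This is the median of a chi-square per gene, over split genes with a mean of at least 50. Each library was counted as its own replicate. Genes took up 32.3% of the normalized reads in heat and 33.4% in control. Most of the rest lay in no annotated gene or aligned to several places. The Pi transporter PHT1;1 (MLOC_28370), known from roots and counted together with its identical paralogs, was at 0 reads in all 6 libraries, which allows a mean of up to 1.08 normalized counts in heat and 0.911 in control.

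One hour of heat changed a large part of the shoot transcriptome, mostly by little. Of the 16212 genes tested, 6177 differed between heated and control shoots (38.1%), 3014 of them higher in heat (18.6%) and 3163 lower (19.5%). The test was limma on log2(normalized count + 1), with Benjamini-Hochberg adjustment over all genes tested and a threshold of 0.05, for genes with a mean over both conditions of at least 10. The median log2 change was 0.66 among the genes called higher and -0.68 among those called lower. Less than a 2-fold change was fitted for 2113 of the 3014 genes called higher (70.1%) and for 2342 of the 3163 called lower (74.0%). In 4039 tested genes (24.9%) all 3 heat libraries lay above all 3 control libraries, and in 4105 (25.3%) all lay below. The balance of rises and falls depended on the size factors of the authors. When each library was scaled to its total reads in the tested genes instead, the median log2 change over all tested genes was -0.19, and 1735 genes were called higher and 4813 lower.

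**Figure D1:**
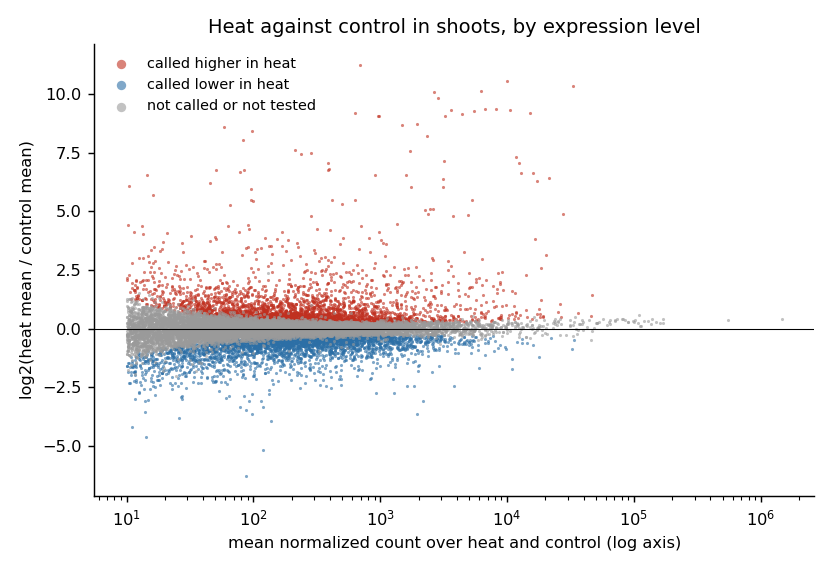
Each point is a shoot gene with a mean of at least 10, placed by its mean normalized count over heat and control (log axis) and by log2 of the heat mean over the control mean. Red points were called higher in heat, blue points lower, and grey points were not called or not tested. The 3 genes of this range with a control mean of 0 have no ratio and are not drawn. The cloud is narrow and centred on zero, with a long upper tail that reaches all levels and a short lower tail.

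The group means, which are exact for every gene, gave the same picture of a narrow centre and a lopsided tail. Among the 16238 genes with a mean of at least 10, the median log2 ratio of heat over control was 0.001, and the middle 50% of genes lay between -0.34 and 0.31. In all, 14406 of these genes (88.7%) changed by less than 2-fold. At 2-fold, 944 genes were higher in heat and 888 lower, and these numbers were 676 and 1478 when the means were scaled to the total reads in genes. At 4-fold, 277 genes were higher and 116 lower, at 8-fold 132 and 18, and at 16-fold 83 and 4. The ratio of higher to lower genes was thus 1.06 at 2-fold and 20.8 at 16-fold with the size factors of the authors. Under scaling to total reads, 76 genes were still 16-fold higher and 6 were 16-fold lower. The same count was made between single libraries. Between 2 libraries of the same condition, 361 to 586 genes were apart by at least 2-fold, against 2132 to 2459 genes between a heat and a control library. At 16-fold, 4 to 10 genes were apart between heat libraries and 21 to 24 between control libraries. Between a heat and a control library, 80 to 99 genes were at least 16-fold higher in heat and 8 to 14 at least 16-fold lower. In a single direction, 1 to 5 genes were 16-fold apart between heat libraries and 6 to 16 between control libraries. The 16-fold falls were thus as many as between control libraries, and the 16-fold rises were many more. With 10 added to both means, which shrinks the ratios of low genes, 56 genes were still 16-fold higher and 0 were 16-fold lower.

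**Figure D2:**
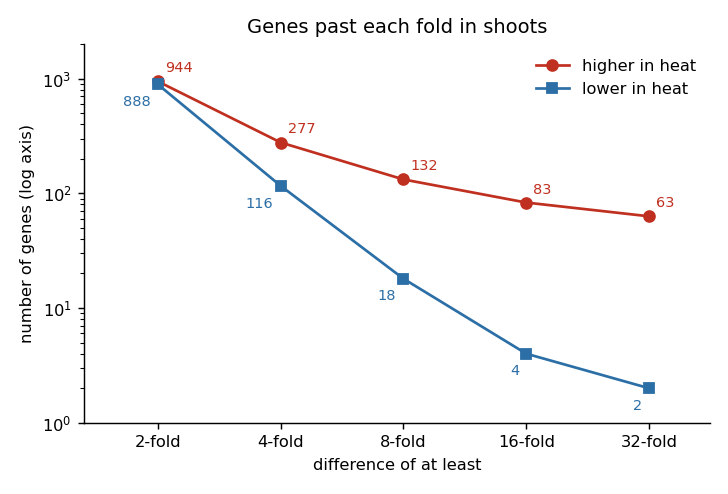
Number of shoot genes (log axis) whose group means differed by at least the fold on the horizontal axis, among 16238 genes with a mean of at least 10. Circles are genes higher in heat and squares are genes lower in heat. The lines start together at 944 and 888 genes and part to 63 and 2 genes at 32-fold.

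Most of the 83 genes that were at least 16-fold higher had low levels in control shoots. Their median was 1391 normalized counts in heat and 11.2 in control. In control shoots, 40 of them lay below 10 normalized counts, 27 between 10 and 100, and 16 at 100 or more. In heat, 45 of the 83 lay at 1000 or more and 11 stayed below 100, the lowest at 19.4. Their summed normalized count was 562107, 601545 and 547347 in the 3 heat libraries, against 6075, 6816 and 5737 in the 3 control libraries. As group means they held 3.39% of the gene reads in heat and 0.0432% in control, a 91.9-fold difference in summed normalized counts. The sum was uneven, since the 10 genes with the most reads in heat held 61.7% of it. All 83 were among the genes called higher, but their ratio comes from the same libraries as the test, so this count carries no further weight. The least gap was that of a gene whose lowest heat library was 5.08 times its highest control library, over the 80 genes with any control read, and the median gap was 66.5-fold.

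Large falls were few and small in reads. The 116 genes that were at least 4-fold lower held 0.0472% of the gene reads in heat and 0.315% in control, whereas the 277 genes at least 4-fold higher held 5.47% in heat and 0.437% in control. In control shoots the falling genes had a median of 80.9 normalized counts, and 11 of them reached 1000, up to 6438. The rising genes had a median of 452 normalized counts in heat, and 96 of them reached 1000. The gene with the deepest fall had 1.03, 1.08 and 4.59 normalized counts in heat, against 167, 179 and 169 in control, a log2 change of -5.91 ± 0.37 (SE, limma adjusted p = 2.9e-07). The heat and control libraries of this gene are far apart, but its remaining level in heat rests on few reads.

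The share of genes called grew with expression level up to a point and then fell. Among the 2310 genes with a mean of 10 to 30, 21.4% were called, and among the 1330 genes of 1000 to 3000, 47.8% were called. Above 10000, 34.8% of 155 tested genes were called. The median standard error of the log2 change was 0.33 at the lowest level, 0.10 between 1000 and 3000 and 0.16 above 10000, so that the most abundant genes were measured less evenly across libraries than those just below them. The spread of the heat to control ratios also narrowed with level, with an interquartile range of 0.98 at 10 to 30 and 0.39 above 10000 (log2). Between single libraries of a condition it was 0.72 to 0.85 at the lowest level and 0.15 to 0.29 at the highest. These pairs were taken over split genes with 1 added to each count, which narrows the ratios of low genes. The ratios of heat to control had nothing added. Heat against control was wider than any pair of libraries of a condition in each of the 7 classes of level, although it compares means of 3 libraries and the pairs compare single ones.

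The balance of higher and lower genes across levels depended on how the level was defined. By the mean over both conditions, at 10 to 30, 8.48% of the tested genes were called higher and 12.9% lower. At 300 to 1000 the shares were 22.9% and 23.7%, and above 10000 they were 27.7% and 7.10%. Of the genes past 2-fold, 185 were higher and 276 lower at 10 to 30, 89 and 39 at 1000 to 3000, 53 and 6 at 3000 to 10000, and 20 and 3 above 10000. This order is tied to the ranking, because a gene that rises steeply is lifted into a high class by its own heat reads. When genes were ranked by the control mean alone, 13.2% were called higher and 7.61% lower at 10 to 30, where genes that fell are more often lost to the filter. The shares were 17.09% and 30.05% at 1000 to 3000, and 13.8% and 12.3% above 10000. Past 2-fold, 47 genes were higher and 61 lower at 1000 to 3000 in this ranking, and 3 genes were higher and 3 lower above 10000 (3.85% of 156 genes). Ranked by the heat mean, they were 37 and 1 (18.5% of 205 genes). Genes above 10000 before heating therefore seldom changed by 2-fold in either direction, and the steep rises came from genes with low control levels. The 95% interval of the 3.85% was 1.77% to 8.14%. It includes the 7.14% found at 3000 to 10000 by the control mean, so the top class is not set apart from the one below it. Ranked by the control mean, 16 of the 16-fold rises started at 10 to 30, 11 at 30 to 100, 11 at 100 to 300, 4 at 300 to 1000, 1 at 1000 to 3000 and 0 above 3000.

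**Figure D3:**
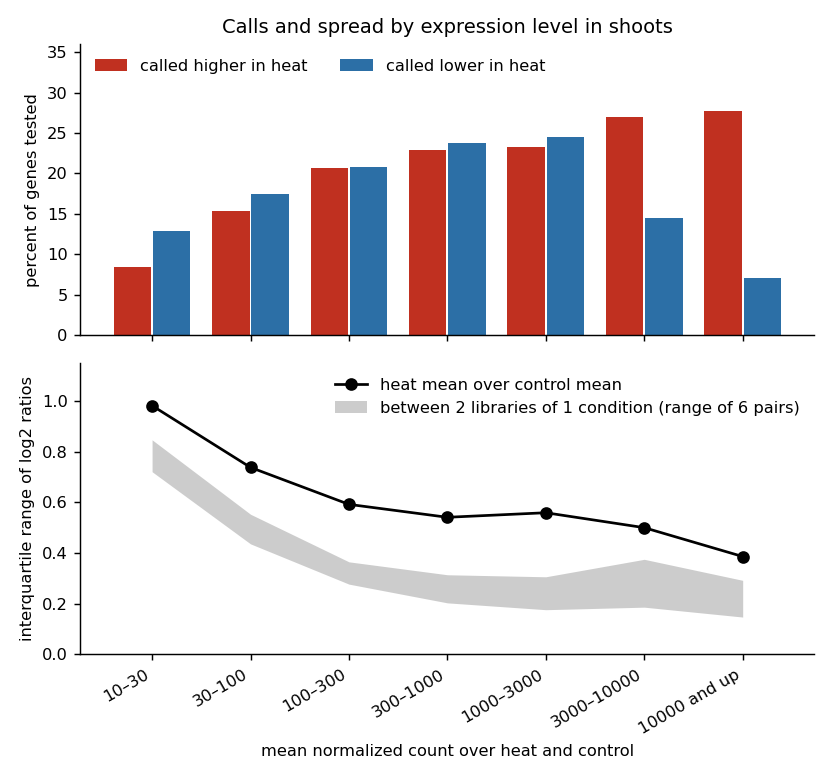
Upper panel, percent of tested shoot genes called higher (red) or lower (blue) in heat in 7 classes of mean normalized count over both conditions. Lower panel, interquartile range of the log2 ratios of the heat mean over the control mean (black). Grey is the range over the 6 pairs of libraries of the same condition, for split genes with 1 added to each count. Higher calls reach 27.7% and lower calls drop to 7.10% in the top class, and the black line stays above the grey band.

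Few genes were switched on from no reads, and none was switched off. On was defined as 0 reads in all 3 control libraries and a mean of at least 10 normalized counts in heat, and 6 genes met it. The highest of them had 398, 305 and 127 reads in heat and 0, 0 and 0 in control. Against the floor of 3 reads over the control group, it was at least 323-fold higher in heat, and limma gave an adjusted p of 2.7e-08. Its lowest heat library had less than 50% of the reads of either other heat library. The other 5 genes had between 8 and 33 reads in each heat library and were at least 12.7-fold to 31.3-fold higher. Of these 5, the 2 with a mean over both conditions above 10 were tested and called, and 3 lay below the filter. No gene with 0 reads in all 3 heat libraries had a control mean of 10. The count of on genes rests on the control libraries, since it was 12 without control library 2 and 8 without control library 1. Without heat library 1 or heat library 3, 1 gene counted as off.

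Most of the genes seen in a single condition had very few reads. Reads in heat alone were found for 607 genes and reads in control alone for 630, with a median of 1 read over the group in each case. Reads in all 3 libraries of that condition and in none of the other were found for 42 genes in heat and 49 in control. The most reads over the group were 830 for a gene seen in heat alone and 15 for a gene seen in control alone. With up to 3 reads allowed over the silent group, 18 genes were on, with a median of 27.1 and a highest mean of 1391 normalized counts in heat, and 8 were off. The number of genes with reads was compared without correction for depth. In genes with recovered reads, the control libraries held 11025840 to 11800081 reads and the heat libraries 10812274 to 11201915. At least 1 read was found for 19653, 19684 and 19353 genes in the heat libraries and for 19765, 19762 and 19543 in the control libraries (exact permutation test, 2-sided, p = 0.5, n = 3 each). At least 10 reads were found for 16109, 16018 and 15859 genes in heat and for 16497, 16496 and 16110 in control (exact permutation test, 2-sided, p = 0.1, the smallest possible, n = 3 each). The conditions did not overlap, but the highest heat library, at 16109, all but tied with the lowest control library, at 16110.

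Heating moved 12.65% of the gene reads to other genes, or 5.72% of all counted reads when the lines that name no gene are included. The first value is the summed gain in share over all genes that gained, which equals the summed loss. A gain in share was made by 7126 genes and a loss by 14202. The gene total was 1.17-fold larger in heat, so a gene with an unchanged normalized count lost share. By normalized group means, 8127 genes were higher in heat and 8111 lower, among those with a mean of at least 10. In share, the gain lay in few genes and the loss was thin. Only 42 genes made up 50% of the gain, whereas 452 genes made up 50% of the loss, and 530 and 3802 genes made up 90%. At least 0.1 percentage points were gained by 21 genes and lost by 4. The largest gain was 1.19 points, in the most abundant gene, and the largest loss was 0.155 points. The 83 genes with 16-fold rises took 26.5% of the gain. Genes called higher took 75.3% of the gain and genes called lower 54.3% of the loss. Calls and shares come from the same libraries, so these values are a description. The genes that could not be split, and so not be called, held 18.5% of the gain and 2.74% of the loss.

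The move was larger than that between libraries of a condition. Over the genes with recovered reads, 15.3% to 17.4% of reads were moved in the 9 pairs of a heat and a control library. In the 3 pairs of heat libraries 4.45% to 7.05% were moved, and in the 3 pairs of control libraries 4.93% to 6.99%. These pairs share libraries and are given as a description. Heated shoots also had their reads in fewer genes. As group means, 132 genes held 50% of the gene reads in heat and 180 in control. By library, over the genes with recovered reads, the number was 450, 437 and 392 in heat and 602, 566 and 507 in control. The conditions did not overlap, with 426 ± 30.4 genes in heat and 558 ± 48.0 in control (SD, n = 3 each, exact permutation test, 2-sided, p = 0.1, the smallest that 3 against 3 can give). In each condition, however, the number was lower the lower the size factor of the library. Every heat library also had a lower size factor than every control library, so heat and size factor cannot be told apart for this measure.

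Nearly all of the most abundant shoot genes stood slightly higher in heat. All 20 genes with the highest mean over both conditions had a ratio above 1, with a median log2 ratio of 0.31 and a range of 0.09 to 0.56. The 20 highest genes in heat and the 20 highest in control were the same genes, although their order changed, and the 10 highest shared 9. The most abundant gene had a mean of 1667887 normalized counts in heat and 1253873 in control, which was 9.92% and 8.73% of the gene reads. The second had 617805 and 484866, or 3.68% and 3.38%. Of these 20 genes 19 could not be split into libraries, and the 1 that was tested was not called, so no test stands behind this shift. The summed gene reads were 16808210 in heat and 14359477 in control, a log2 ratio of 0.23. Set against that sum, 16 of the 20 genes gained share and 4 lost, with a median log2 ratio of shares of 0.08.

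The shift ran down the list with more exceptions. Of the 100 most abundant genes, 83 had a ratio above 1 and 17 below, and relative to the summed gene reads 59 gained share and 41 lost. Within this list, 91 genes changed by less than 2-fold, 8 were at least 2-fold higher and 1 was at least 2-fold lower. These numbers depend on the ranking, since a riser can enter through its heat reads alone. Among the 100 highest genes by the control mean, 2 were at least 2-fold higher and 2 at least 2-fold lower, and 6 were called higher and 7 lower of 74 tested. Of the 74 genes that could be tested, 17 were called higher and 4 lower (28.4%, against 38.1% of all genes tested). The split of 42 of these 74 rested on the choice of like libraries, which can make their spread look too small. The 100 highest genes of heat and of control shared 79 members. The 21 that entered in heat held rank 102 to 13618 in control, and the 21 that left held rank 101 to 392 in heat. A steep rise could thus bring a gene with a control mean of 32.3 normalized counts into the top 100 within 1 h. No gene that left fell below rank 392.

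The share of the abundant genes also differed between libraries of a condition. The 74 split genes of the top 100 held 22.77%, 23.30% and 24.97% of the recovered reads in the heat libraries and 19.95%, 21.08% and 22.50% in the control libraries. The conditions did not overlap, but the highest control library lay next to the lowest heat library (exact permutation test, 2-sided, p = 0.1, n = 3 each). In each condition the share was higher the lower the size factor of the library. Every heat library also had a lower size factor than every control library. The shift of the abundant genes and the size factors cannot be told apart in these data.

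**Figure D4:**
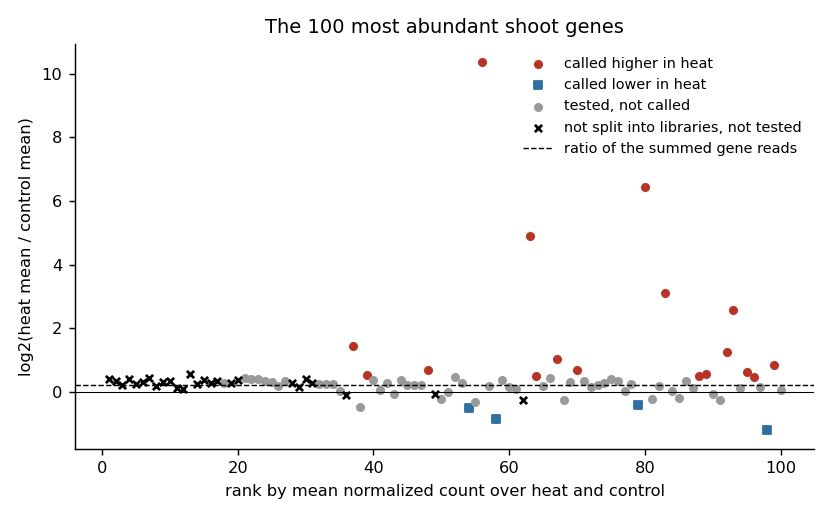
log2 of the heat mean over the control mean for the 100 most abundant shoot genes, ranked by the mean over both conditions. Red circles were called higher in heat, blue squares lower, grey circles were tested and not called, and crosses could not be split into libraries. The dashed line is the log2 ratio of the summed gene reads, 0.23. Ranks 1 to 35 lie between 0.03 and 0.56, and the first ratio above 2 log2 units, 10.35, is at rank 56.

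Hsp90.1 (MLOC_5618), a chaperone gene that the study used as a marker of heat stress, had 26786, 32804 and 23846 reads in the heat libraries and 70, 77 and 24 in the control libraries. The log2 change was 9.30 ± 0.30 (SE, limma adjusted p = 9.9e-10). In heat it stood sixth among the 83 steep risers, with 0.179% of all gene reads.

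Among the 100 most abundant genes, MLOC_77985 and MLOC_5001 had the largest rises. MLOC_77985 had 63349, 64125 and 70218 normalized counts in heat and 62.0, 62.8 and 26.6 in control. It was low in each control library, and by the group means it held rank 30 in heat and rank 12312 in control. Its log2 change was 10.42 ± 0.25 (SE, limma adjusted p = 8.2e-11), with the heat reads split by like levels. Control library 3 was the lowest both for this gene and for Hsp90.1, and without it the log2 changes were 10.02 and 8.83. MLOC_5001 had 42939, 46577 and 36805 normalized counts in heat and 474, 483 and 494 in control. This gene was already expressed before heating, and its control libraries differed by little. Its log2 change was 6.43 ± 0.11 (SE, limma adjusted p = 4.6e-12).

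The largest falls on the same list were far smaller. MLOC_58758 had 8902, 10606 and 12886 normalized counts in heat and 22178, 24629 and 28232 in control. Its log2 change was -1.22 ± 0.17 (SE, limma adjusted p = 0.00016). MLOC_9957 had 19764, 22297 and 27540 normalized counts in heat and 37780, 40547 and 47965 in control, with the control reads split by like levels. Its log2 change was -0.87 ± 0.18 (SE, limma adjusted p = 0.0032). In both genes the heat libraries lay below all control libraries, and in each condition the library with the lowest size factor was the highest. For MLOC_58758 the SD over libraries was 1999 normalized counts in heat and 3045 in control, and for MLOC_9957 it was 3966 and 5267.

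**Figure D5:**
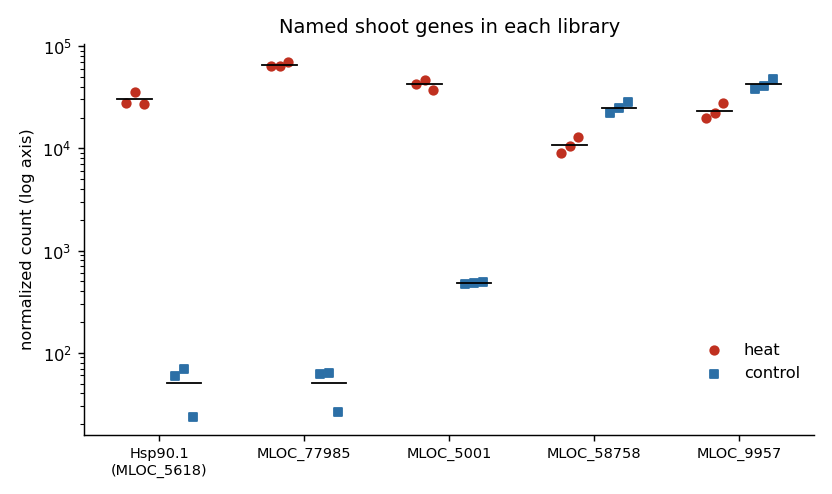
Normalized counts (log axis) of 5 named shoot genes in each library, heat as red circles and control as blue squares, with the mean as a black line. Hsp90.1, MLOC_77985 and MLOC_5001 are apart by more than 6 log2 units, whereas MLOC_58758 and MLOC_9957 are lower in heat by 1.22 and 0.87.

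Most shoot Pi genes of the study did not pass the test. Of 10 genes 7 were tested, and 0 were called higher and 1 lower. This was PHO2, which encodes a ubiquitin-conjugating enzyme known from Arabidopsis to limit Pi uptake and transport, with 817, 774 and 788 reads in heat and 1250, 1309 and 1091 in control (log2 change -0.37 ± 0.09 SE, limma adjusted p = 0.0078). Its fall was smaller than the median of -0.68 among the genes called lower. The background of genes called lower is 19.5%, so that 1 of 7 genes does not stand out. Of the 46 tested EPlHVUG genes, 29 were called higher and 1 lower, against 18.6% and 19.5% of all tested genes, and this class includes the most abundant gene.

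By the group means, roots had more genes past each fold than shoots, with rises again ahead of falls at 16-fold. At 2-fold, 1912 root genes were higher in heat and 2129 lower among 18231 genes, and at 16-fold 195 and 41. Root means average 2 libraries per condition and shoot means 3, and single root libraries were not compared in pairs. The summed gene reads of heat over control were 1.395 in roots and 1.17 in shoots. Heat moved 29.1% of the gene reads in roots. Of the 83 shoot genes with 16-fold rises, 72 rose by at least 16-fold in roots too, which is 86.7% of the shoot list and 36.9% of the root list. The difference between the responses was tested with limma as an interaction over all 10 libraries. It was called for 3843 of 18753 genes (20.5%), with the shoot response above that of roots in 1701 and below it in 2142. Scaled to total reads, these numbers were 3281 and 1179, so that the balance belongs to the scaling. Among the 83 steep risers the shoot response was called above that of roots in 11 and below in 27. This split is given for the size factors of the authors only, and the 83 were chosen by their shoot rise in the same libraries. For Hsp90.1 the log2 change was 9.30 in shoots and 10.27 in roots, and the difference of -0.97 ± 0.55 was not called (SE, limma adjusted p = 0.25).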

How the data were processed

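The authors sequenced strand-specific libraries of 3 heated and 3 control shoots and of 2 heated and 2 control roots, stated as biological replications. TopHat2 was used for mapping to the barley genome of Ensembl Plants and HTSeq for counting. Tool versions and the strand setting were "not given in the sources used here". In the tables, the authors' deposited signal values are means per condition of gene counts divided by DESeq size factors. Their fold change, log2 fold change, p-value and adjusted p-value columns, and the tables of significant genes, were not used. The lines that name no gene held 67.7% of the normalized reads in heat and 66.6% in control and were left out.

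Each mean was split into the whole reads of its libraries by an exact search. A mean was taken as split where a single solution existed, or, among several, where only 1 had libraries within a ratio of 2 and that one was within 1.5. The second way decided 44 shoot genes. Of the means above 0, 99.9% were split in heat and in control. Of simulated means, 1863 of 1878 in heat and 1799 of 1817 in control were split rightly and 0 wrongly. These were drawn with libraries at like levels, which the second way also assumes. Of 1386 and 1363 means below 5000 moved at random, 0 were split. That check did not reach the 44 genes split the second way, whose lowest mean was 15857. Library numbers are names only.

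A negative binomial test on counts had been planned. The deposited values are means, and the reads behind them were inferred by a search that left out 26 abundant genes, so no count model was fitted. Instead, limma 3.58.1 with a mean-variance trend in R 4.3.3 was used on log2(normalized count + 1), for genes with a mean over both conditions of at least 10, with Benjamini-Hochberg adjustment. A fold change on this scale is understated for low genes. In simulated data, 100 genes were changed by 2-fold and 100 by 4-fold, and all others were left unchanged. Among 16212 shoot genes, 72% of the 2-fold and 95% of the 4-fold changes were found, with 13 unchanged genes called. For the interaction over 18753 genes these were 29%, 69% and 7. The data had far more called genes, 38.1% for shoots and 20.5% for the interaction, so these rates need not hold for them. The floors cover counting error only, whereas the standard errors of limma also include the spread between libraries. Python 3.11.15, numpy and scipy were used for the rest. The alternatives were other scalings, filters, pseudocounts, thresholds, rankings and leaving out each library.

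The genes, lists and tests were chosen with earlier results of these data known. Named are Hsp90.1, the Pi genes as a count, and the 2 largest rises and 2 largest falls by group means among the 100 most abundant shoot genes. PHO2 and the gene with the deepest fall were singled out after their values were seen.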

Additional observations from a re-analysis of the deposited data

Results flagged for a closer look

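For 3 of the 5 named genes the heat response was called different between shoots and roots (limma interaction over all 10 libraries). Over all genes tested, 20.5% were called. All named genes but Hsp90.1 were chosen by their shoot change in the same libraries, so their differences are partly selected and carry no further weight. For MLOC_5001 the log2 change was 6.43 in shoots and 7.72 in roots, a difference of -1.29 ± 0.15 (SE, adjusted p = 0.00032), so that both tissues rose and roots more. For MLOC_58758 it was -1.22 in shoots and 1.76 in roots, a difference of -2.98 ± 0.26 (adjusted p = 6.4e-05), but its mean in roots was only 6.51 normalized counts in heat and 1.25 in control. For MLOC_9957 it was -0.87 in shoots and 0.58 in roots, a difference of -1.45 ± 0.23 (adjusted p = 0.0022), with 14.2 normalized counts in heated and 9.20 in control roots. Both falling genes are thus abundant in shoots and near the limit of counting in roots.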

How the results depend on the processing

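The log2 change of the 5 named genes kept its direction and its call in all 60 alternative results, counted over the 5 genes together. Scaled to total reads, 1735 genes were called higher and 4813 lower, 1478 genes were past 2-fold lower, 24.0% of genes were past 2-fold at the lowest level, 41 of the 100 most abundant genes had a ratio below 1, and 3281 and 1179 genes had a shoot response above and below that of roots. At an adjusted p under 0.01, 1883 genes were called higher and 2013 lower. With a mean of at least 50, 492 genes were 2-fold and 2 were 16-fold lower. A pseudocount of 10 gave 579 and 0, and a pseudocount of 1 gave 2 genes 16-fold lower. Ranked by the control mean, 3.85% of the genes of the highest level were past 2-fold, and ranked by the heat mean 18.5%. Ranked by the heat mean, 11 of the 100 most abundant genes had a ratio below 1. With at least 20 normalized counts in heat 3 genes were on, and with up to 3 reads in the silent group 18 were on and 8 off. The share of reads moved was 5.72% with the lines that name no gene, 15.4% without the 20 most abundant genes and 15.6% over genes with recovered reads. Without 1 library each, 2362 to 2858 genes were called higher and 2474 to 3106 lower, 5 to 12 were on, 0 to 1 off, and 1213 to 1735 and 1485 to 2157 had a shoot response above and below that of roots. Scaling to the upper quartile, a mean of at least 50 for the calls, a pseudocount of 10 for the calls and a robust variance were chosen after seeing the data, and the calls ranged from 2668 to 3069 higher and from 2670 to 3461 lower. The cause of these moves was not tested. Negative binomial tests with their scalings and filter were planned and not run, because the reads were inferred from means. No paired analysis was possible because the recovered libraries carry no replicate letter. Depth limits the genes with a mean of 10 to 30, where the median standard error was 0.33 (log2).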
